A study of Mus musculus with 3 samples.

Results

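The high mobility group (HMG) genes Hmgb1, Hmgb2, Hmgb3, Hmga1, Hmga2, Hmgn1, Hmgn2, Hmgn3 and Hmgn5 encode abundant chromatin proteins of the HMGB, HMGA and HMGN families. They were chosen by family around Hmgb2, with the log2 intensities of the same arrays already in view, so the levels given here are a description. A gene was followed through every probe set, a group of short probes for 1 transcript, whose platform annotation names that gene alone. By this rule 6 of the 9 genes were measured, with 15 probe sets, out of 18194 genes on the array. The annotation gave Hmgb1 only in 5 probe sets that also name other genes, and Hmgn2 only in 1 such probe set. No probe set was assigned to Hmga1, and these 3 genes carry no values here.

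3T3-L1 cells are a mouse fibroblast line that turns into fat cells in culture, and glucose oxidase is an enzyme that releases hydrogen peroxide while oxidising glucose. In the study the line was differentiated into adipocytes and exposed to glucose oxidase for 2 h as a source of oxidative stress, and total RNA from 3 samples was hybridised to Affymetrix mouse4302 arrays. The labels call the cells insulin resistant 3T3-L1 adipose cells in one field and preadipocytes in another. All 3 samples form a single treated group. Control arrays were not analysed here, so no fold change and no test of the treatment can be given, and with 3 arrays the precision is limited. The dose of the enzyme was not stated in the sources used here. The replicates are not described as separate cultures either, so their spread may be technical.

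Values are log2 of the deposited linear intensities, with the SD over the 3 arrays. A probe set was taken as above background when it exceeded 7.58 in every array, the 95th percentile of the means of 84 probe sets that name sensory receptor genes of smell and taste. The arrays were alike as a whole, with median intensities of 127.6, 126.9 and 126.9 in replicates 1, 2 and 3 and Pearson's r of 0.997 to 0.998 across the probe sets above background, which are not independent replicates. Of the marker lists, 10 of 10 measured adipocyte genes, 8 of 9 preadipocyte and fibroblast genes and 3 of 8 macrophage genes were above background. Over all genes the share was 54.4%. The fat cell genes Adipoq and Fabp4 were at 14.49 ± 0.03 and 14.49 ± 0.02 (SD, n = 3). Of the progenitor markers Cd34 was not above background, nor were Adgre1, Cd68, Ptprc, Itgam and Mrc1 of the macrophage markers. The macrophage markers Lyz2 at 11.19 ± 0.09, Cd14 at 8.83 ± 0.02 and Csf1r at 8.70 ± 0.10 (SD, n = 3) were above it. Genes of the adipocyte list and of the preadipocyte and fibroblast list were thus read in the same RNA. Whether they came from different cells was not measured, and a smaller number of cells and less RNA per cell cannot be told apart.

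HMGB proteins bend DNA through paired HMG boxes and end in an acidic tail. They help to assemble transcription and repair complexes, and HMGB1 released from stressed cells acts as an alarm signal. HMGA proteins grip the minor groove of AT-rich DNA with short AT-hook motifs, and Hmga2 is an embryonic gene that takes part in the expansion of cells that become fat. HMGN proteins bind inside the nucleosome and compete with linker histone H1, which loosens the packing of chromatin.

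The DNA just before the start of these genes is shown because it holds a feature that the choice of members did not use. This feature is found in at least 1 window of each HMGB gene chosen. In the RefSeq promoter table of build GRCm38.p6, 8 of the 9 genes have a window. The 250 bases before the annotated start were searched on both strands for CCAAT, the core of the box bound by the factor NF-Y. The windows of 4 genes follow, each read 5′ to 3′ on the strand of the gene, with the CCAAT copies in capitals. They lie at chr8:57511593-57511842 on the plus strand for Hmgb2, chrX:71555667-71555916 on the plus strand for Hmgb3, chr5:149053058-149053307 on the minus strand for Hmgb1 and chr16:96127726-96127975 on the minus strand for Hmgn1.
Hmgb2: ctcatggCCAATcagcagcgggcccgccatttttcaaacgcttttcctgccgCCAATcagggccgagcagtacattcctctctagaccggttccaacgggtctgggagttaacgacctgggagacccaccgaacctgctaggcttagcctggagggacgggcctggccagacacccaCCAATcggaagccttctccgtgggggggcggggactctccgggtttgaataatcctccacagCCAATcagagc
Hmgb3: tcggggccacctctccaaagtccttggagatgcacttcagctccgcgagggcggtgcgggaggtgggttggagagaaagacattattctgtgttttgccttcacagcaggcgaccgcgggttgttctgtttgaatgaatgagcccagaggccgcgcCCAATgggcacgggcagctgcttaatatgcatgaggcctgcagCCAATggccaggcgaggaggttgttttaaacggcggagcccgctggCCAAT
Hmgb1: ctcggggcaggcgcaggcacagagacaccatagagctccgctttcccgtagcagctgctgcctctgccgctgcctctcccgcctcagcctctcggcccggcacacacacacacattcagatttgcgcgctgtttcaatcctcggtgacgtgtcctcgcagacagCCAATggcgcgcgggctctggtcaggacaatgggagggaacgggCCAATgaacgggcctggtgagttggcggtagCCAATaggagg
Hmgn1: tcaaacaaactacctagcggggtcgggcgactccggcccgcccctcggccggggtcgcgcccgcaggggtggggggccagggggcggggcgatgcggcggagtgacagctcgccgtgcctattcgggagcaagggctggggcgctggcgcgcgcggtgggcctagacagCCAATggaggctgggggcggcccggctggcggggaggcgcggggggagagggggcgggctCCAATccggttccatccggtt

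The Hmgb2 window holds 4 CCAAT copies, which begin 243, 198, 73 and 11 bases before the start. The Hmgb3 window and the Hmgb1 window shown hold 3 each, and the copy nearest the start begins 5 bases before it in Hmgb3 and 11 bases before it in Hmgb1. A second Hmgb1 window, at an alternative start, holds 0. Of all 32851 windows of this length in the table, 2.79% hold at least 3 copies, 0.84% at least 4, 10.1% at least 2 and 33.8% at least 1. The Hmgn1 and Hmgn5 windows hold 2 copies each, of which 1 in Hmgn5 is on the opposite strand, and the windows of Hmga1, Hmga2 and Hmgn2 hold 0. The GC box GGGCGG is found in 1 copy in Hmgb2, Hmgb3 and Hmga2, in 2 in Hmgn2, in 4 in Hmgn1 and in 0 in Hmgn5. The Hmgb1 window shown holds 0 and the second one 4, and the overlapping Hmga1 windows hold 3 and 4. No CCAAT copy overlaps a GC box, and 32.7% of all windows hold at least 1 GC box. The members' windows range from 56.4% G and C in Hmga2 to 78.8% in the second Hmgb1 window, against a median of 52.4% over all windows.

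The same windows were searched for motifs tied to stress responses. The paired heat shock unit GAANNTTC and the AP-1 site TGANTCA were found in 0 of the members' windows, against 6.69% and 6.75% of all windows. The antioxidant element core TGACNNNGC was found in 1 of the 2 overlapping Hmga1 windows and in no other member, against 10.2% of all windows. The TATA box TATAAA was found in 0 of the members' windows and in 12.4% of all windows. The members' windows come from only 8 genes, too few to read an absence as a lack of these motifs. These matches describe letters in a short stretch of sequence, and binding was not measured.

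After 2 h of glucose oxidase, all 6 measured genes among the chosen HMG members were above background in the 3 arrays, where 54.4% of all genes were. Hmgb4, an HMGB gene not among the chosen members, was measured too and was not above background, at 4.45 ± 0.06 (SD, n = 3). At the level of probe sets, 11 of the members' 15 were above background, against 45.2% of all probe sets with 1 gene. The 4 exceptions belong to Hmgb2, Hmga2 and Hmgn1, each of which has other probe sets above the limit. Each of the 6 genes was above background under the 3 other backgrounds tried and without any 1 of the arrays. Of all genes, 47.8% to 57.4% passed those backgrounds, and 54.55% to 55.15% passed without 1 array. When the median of the probe sets of a gene was used, 5 of the 6 were above background, and Hmga2 was not. By that rule 43.8% of all genes were.

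**Figure D1:**
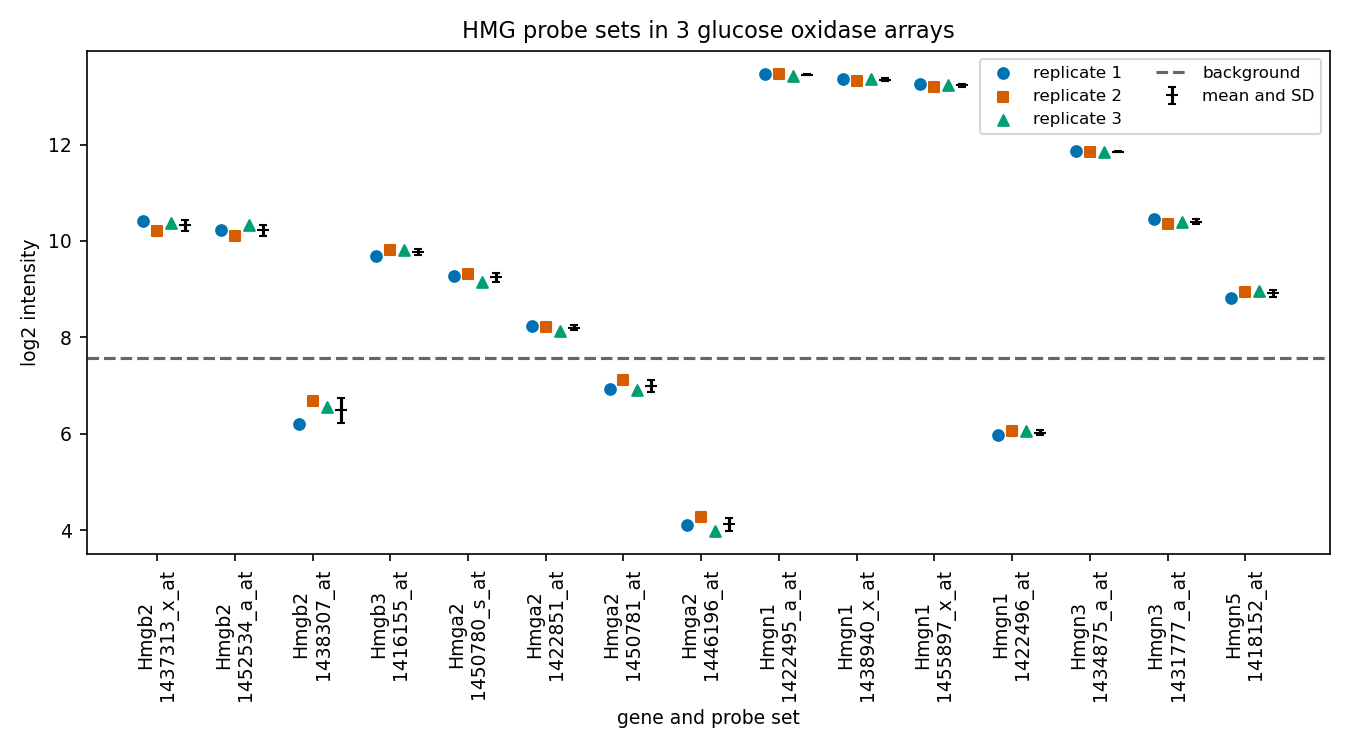
Log2 intensity (y axis) of each HMG probe set (x axis) in the 3 glucose oxidase arrays, each replicate with its own symbol, mean and SD (n = 3) as a black bar and the background of 7.58 as a dashed line. Of the 15 probe sets, 11 lie above the line in all 3 arrays and 4 lie below it in all 3, and heights of different probe sets are not comparable as amounts of RNA.

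Hmgb2, which encodes a chromatin protein that is abundant in dividing cells, was measured by 3 probe sets. The probe set 1437313_x_at read 10.41, 10.20 and 10.38 in replicates 1, 2 and 3, a mean of 10.33 ± 0.11 (SD, n = 3). The probe set 1452534_a_at read 10.22, 10.10 and 10.34, a mean of 10.22 ± 0.12 (SD, n = 3). Replicate 2 was the lowest array for both, at -0.13 and -0.12 from the mean, while the highest array was replicate 1 for the former and replicate 3 for the latter. The third probe set, 1438307_at, read 6.20, 6.68 and 6.56, below background throughout, and there replicate 2 was the highest array.

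The _x_at ending of the brighter Hmgb2 probe set marks probes that can also bind other transcripts. Without such probe sets the Hmgb2 level was 10.22, within 1 SD of the level from the brighter one.

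Among the probe sets above background, both of Hmgb2 varied more than most. Their SDs of 0.115 and 0.117 compare with a median of 0.051 over all 15798 probe sets above background, and 7.17% and 6.49% of these had an SD at least as large. The range between arrays was over 0.2 on the log2 scale for 2 of the 11 HMG probe sets above background, both of them of Hmgb2, against 9.78% of all probe sets above background. These shares cover probe sets of every level above background, and probe sets of a like level were not compared apart. The limit of 0.2 was chosen after the values were seen. For the brighter probe set this spread rests on replicate 2, without which its SD was 0.021. The other probe set also departed by 0.12 from its mean in replicate 3.

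Replicate 2, low for Hmgb2, was also the lowest array for most markers of preadipocytes and fibroblasts. It was so for 7 of the 8 such genes above background. Over all probe sets above background, counted as probe sets and not as genes, the share was 24.7%. The margin was small for Vim, which read 13.62, 13.58 and 13.58 in replicates 1, 2 and 3. The receptor gene Pdgfra read 10.91, 10.63 and 10.92 in replicates 1, 2 and 3, and the preadipocyte gene Dlk1 read 13.33, 13.13 and 13.26. Pdgfrb, the exception, read 10.68, 10.56 and 10.56. The summed linear intensity of the 8 genes was 65116, 61330 and 63884 in replicates 1, 2 and 3. Of the 10 adipocyte genes, replicate 2 was the lowest array for 2, and their summed intensity was 119001, 118776 and 118103. Among the 11 genes above background in the list of other HMG-box genes, replicate 2 was the lowest array for 5. The part of the preadipocyte and fibroblast markers in the Hmgb2 readings was not tested.

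Hmgb3, an HMGB gene known from blood stem cells and embryonic tissue, was measured by a single probe set. It read 9.69, 9.81 and 9.81 in replicates 1, 2 and 3, a mean of 9.77 ± 0.07 (SD, n = 3). Replicate 1 was the low array and the other arrays were level, so Hmgb3 did not share the low reading of Hmgb2 in replicate 2. Its SD of 0.069 was matched or exceeded by 30.4% of the probe sets above background.

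Hmga2, whose transcript is a classical target of the let-7 microRNAs, was measured by 4 probe sets that differed widely. The probe set 1450780_s_at read 9.27, 9.32 and 9.15 in replicates 1, 2 and 3, a mean of 9.24 ± 0.09 (SD, n = 3). The probe set 1422851_at read 8.24, 8.22 and 8.14, a mean of 8.20 ± 0.06 (SD, n = 3). These were above background, and 1450781_at at 6.98 ± 0.12 and 1446196_at at 4.12 ± 0.14 (SD, n = 3) were not.

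Replicate 3 was the lowest array in each of the 4 Hmga2 probe sets, with departures of -0.06 to -0.13 from their means. The highest array was replicate 2 in 1450780_s_at and in both probe sets below background, and replicate 1 in 1422851_at. With the median of the 4 probe sets the level of Hmga2 was 7.59, and it was 8.20 without probe sets ending in _x_at or _s_at. The _s_at ending marks probes shared by several transcripts.

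Hmgn1, which encodes a nucleosome-binding protein found in most tissues, was measured by 4 probe sets. In replicates 1, 2 and 3, 1422495_a_at read 13.46, 13.47 and 13.43, 1438940_x_at read 13.36, 13.31 and 13.36, and 1455897_x_at read 13.27, 13.20 and 13.24. Their means of 13.45, 13.34 and 13.23 lay close together, and their SDs of 0.018 to 0.035 were below the median of all probe sets above background. The fourth, 1422496_at, was at 6.02 ± 0.05 (SD, n = 3), not above background.

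Hmgn3, an HMGN gene known for a role in insulin and glucagon secretion, was measured by a pair of probe sets. The probe set 1434875_a_at read 11.87, 11.85 and 11.84 in replicates 1, 2 and 3, a mean of 11.85 ± 0.01 (SD, n = 3). The probe set 1431777_a_at read 10.46, 10.36 and 10.39, a mean of 10.40 ± 0.05 (SD, n = 3). Replicate 1 was the highest array in both. The SD of 0.013 of the former was the smallest of the 11 HMG probe sets above background, and 94.6% of all probe sets above background varied at least as much.

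Hmgn5, an X-linked gene whose protein carries a long acidic tail and opposes linker histone H1, was measured by a single probe set. It read 8.82, 8.94 and 8.97 in replicates 1, 2 and 3, a mean of 8.91 ± 0.08 (SD, n = 3). Replicate 1 was the low array, as for Hmgb3, and 23.4% of the probe sets above background had an SD at least as large.

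**Figure D2:**
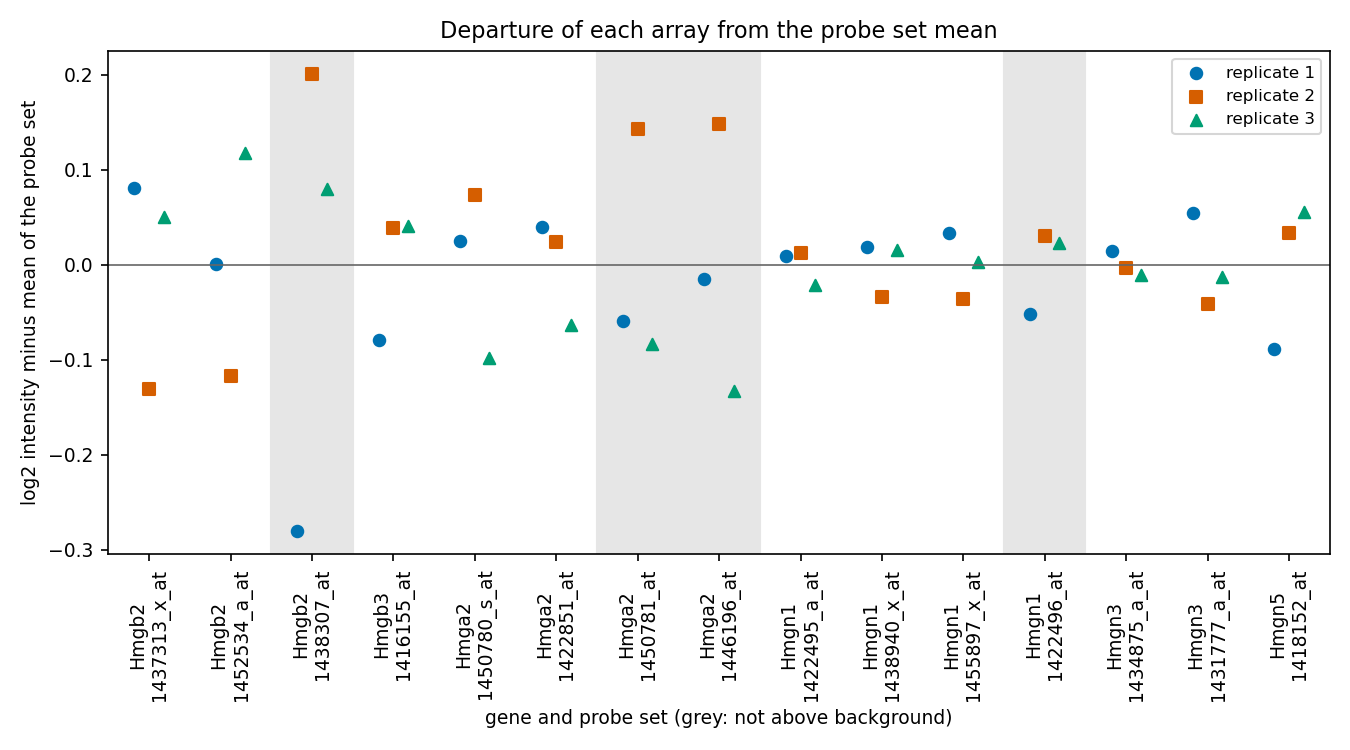
Departure of each array from the mean of the probe set on the log2 scale (y axis) for the 15 HMG probe sets (x axis), with 1 symbol per replicate and grey bands for probe sets not above background. Replicate 2 is low in both Hmgb2 probe sets above background, replicate 1 is low in Hmgb3 and Hmgn5, and replicate 3 is low in all 4 Hmga2 probe sets.

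The families thus showed no common order of the arrays. Of the 11 HMG probe sets above background, replicate 1 was the highest array in 6 and the lowest in 2, whereas over all 15798 probe sets above background it was the highest in 22.7% and the lowest in 47.4%. Replicate 2 was the lowest in 5 of the 11, against 24.7% of all, and replicate 3 was the lowest in 4, against 27.9% of all. Probe sets of 1 gene share their transcript, so these 11 are not independent. Over the HMG probe sets above background, the median difference of replicate 2 minus replicate 1 was -0.019 and that of replicate 3 minus replicate 1 was -0.030, against 0.024 and 0.028 over all probe sets above background. The 3′ probes of actin, which read higher than the 5′ ones in degraded RNA, gave 1.70, 1.58 and 1.54 times their intensity in replicates 1, 2 and 3. The same ratio for Gapdh was 1.11, 1.14 and 1.10, in another order. The part of RNA quality in these small shifts was not tested.

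The spread between arrays ranged widely among the genes. Over the probe sets used as gene levels, the SD was 0.115 for Hmgb2, 0.088 for Hmga2, 0.077 for Hmgn5, 0.069 for Hmgb3, 0.018 for Hmgn1 and 0.013 for Hmgn3. The median of the 6 was 0.073, and it was 0.020 without replicate 1, the array that sets Hmgb3 and Hmgn5 apart. Whether the genes differ in spread was not tested, since an SD from 3 arrays is itself imprecise. Hmgn1 and Hmgn3, with the smallest SDs, also had the highest levels, 13.45 and 11.85. The part of signal level in the spread was not tested.

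**Figure D3:**
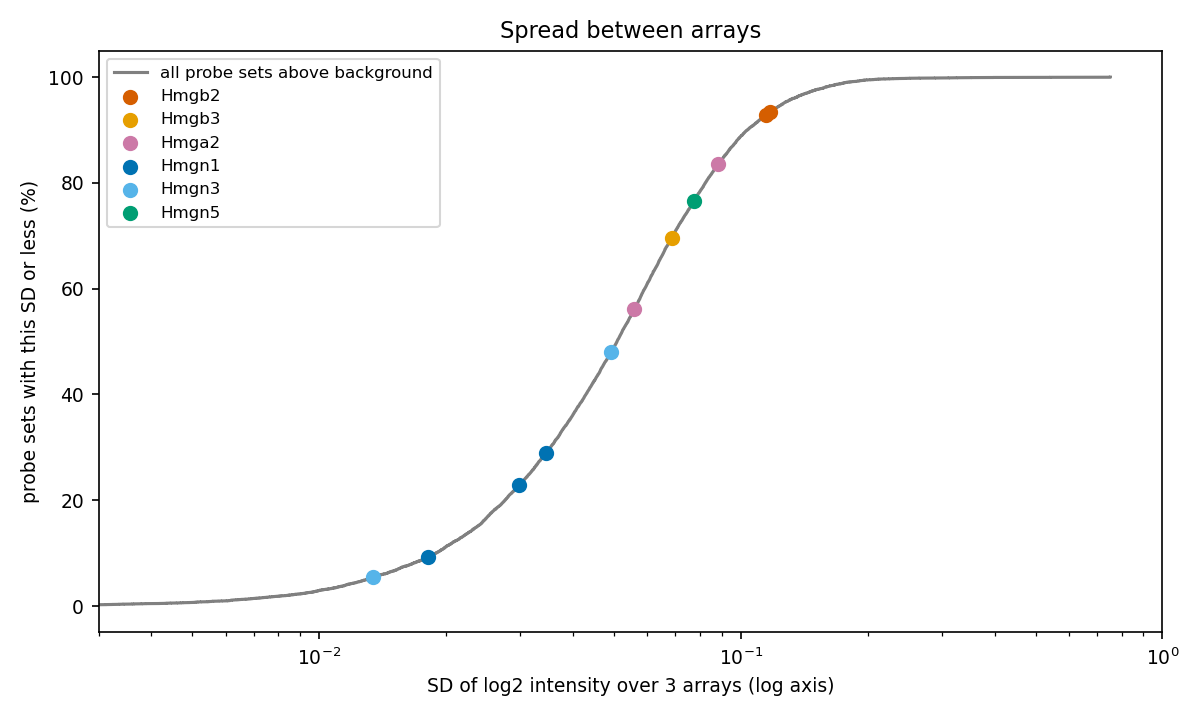
Share of all 15798 probe sets above background (y axis, in percent) with an SD over the 3 arrays at or below the value on the x axis (log2 intensity, log axis), as a grey line, with the 11 HMG probe sets above background as coloured points. The Hmgb2 points lie near the upper end, at SDs of 0.115 and 0.117, and the lowest Hmgn1 and Hmgn3 points near the lower end, at 0.018 and 0.013.

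Genes with departures close to those of Hmgb2 were sought, and with only 3 arrays and many genes some must lie near. Likeness was the root mean square difference between 2 profiles over the 3 arrays after removal of each mean. The genes nearest to the brighter Hmgb2 probe set were Reck, which encodes an inhibitor of matrix metalloproteinases, at 0.0033, Zfp995 at 0.0073 and Ssc4d at 0.0088 on the log2 scale. Reck, for example, read 8.54, 8.34 and 8.52 in replicates 1, 2 and 3. With the other Hmgb2 probe set the nearest were Timp4, Yes1 and 5031434O11Rik, so the probe sets of 1 gene led to different neighbours. Of the 9898 other genes above background, 304 (3.07%) lay within 0.05 of the former and 444 (4.49%) within 0.05 of the latter. The limit of 0.05 was also chosen after the values were seen. How many genes lie as near to a gene other than Hmgb2 was not counted.

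The other lists give the setting in which the HMG genes were measured. Of 14 other measured genes with an HMG box, which include Hmgb4 of the HMGB family, 11 were above background, a share of 78.6% against 54.4% of all genes. Tfam, whose protein packs mitochondrial DNA, was at 9.89 ± 0.05 (SD, n = 3). The genes not above background were Hmgb4, an HMGB gene of the testis, at 4.45 ± 0.06, Tox at 5.31 ± 0.04 and Tox3 at 3.97 ± 0.10 (SD, n = 3). The median SD of the 11 was 0.046.

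HMGB2 belongs to the SET complex, a group of proteins at the endoplasmic reticulum and in the nucleus that processes DNA damage. A list of 6 other genes was written around that complex, of which Trex1 had no probe set of its own. All 5 measured genes of the list were above background, against 54.4% of all genes. Whether each listed gene, such as Anp32b, encodes a part of the complex was not checked. The histone chaperone gene Set read 12.45, 12.43 and 12.45 in replicates 1, 2 and 3. Anp32a was at 10.24 ± 0.02 and the base excision repair gene Apex1 at 11.64 ± 0.02 (SD, n = 3). Replicate 2 was the lowest array for Set, Anp32a and Apex1, as for Hmgb2, and not for Nme1 and Anp32b. The median SD of the 5 genes was 0.019, against 0.115 for Hmgb2.

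Linker histones are the proteins that HMGN members displace, and 6 of the 10 listed genes were measured. H1f0, H1f1, H1f3 and H1f5 had no probe set of their own. Of the 6, 1 was above background, a share of 16.7% against 54.4% of all genes. This was H1f2, which read 13.33, 13.34 and 13.28 in replicates 1, 2 and 3. H1f10 was at 6.94 ± 0.07, H1f4 at 5.37 ± 0.13, H1f6 at 6.90 ± 0.04, H1f8 at 6.09 ± 0.06 and H1f7 at 6.08 ± 0.04 (SD, n = 3). The last 3 of these are known from germ cells. The labelling primer was oligo(dT), and replication-dependent histone transcripts mostly lack a poly(A) tail, so a low reading of such a transcript need not show low RNA. The listed genes were not sorted by this trait, and its part in the readings was not tested.

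The receptors that respond to extracellular HMGB1 were listed because HMGB1 is the released member of the family. Of 6 genes, 3 were above background, a share of 50% near the 54.4% of all genes. The receptor gene Ager was at 8.15 ± 0.11, Tlr2 at 9.40 ± 0.04 and Tlr4 at 8.48 ± 0.09 (SD, n = 3). Tlr9 at 7.36 ± 0.21, Cxcr4 at 4.85 ± 0.17 and Havcr2 at 4.01 ± 0.03 (SD, n = 3) were not above background. With the 99th percentile as background, or without _x_at and _s_at probe sets, 2 of the 6 were above it and Ager was not. The share of all genes was 47.8% in the former case and 52.9% in the latter.

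For the let-7 axis of Hmga2, Lin28a and Lin28b, which encode proteins that block let-7 maturation, read 4.71 ± 0.09 and 2.78 ± 0.05 (SD, n = 3), which is not above background. Igf2bp1, an RNA-binding protein gene that let-7 also targets, was above it at 8.49 ± 0.03 (SD, n = 3), as were Igf2bp3 and Dicer1. In this list 3 of 5 measured genes passed, a share of 60% near that of all genes. MicroRNAs themselves were not measured.

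Because Hmgb2 is known from dividing cells, proliferation genes were counted too. Of 9 measured genes 5 were above background, a share of 55.6% near the 54.4% of all genes. Cdk1, Pcna, Mcm2, Mcm5 and Ccna2 were above it, and Mki67 at 6.30 ± 0.06, Top2a at 7.06 ± 0.03, Bub1 at 5.60 ± 0.12 and Aurkb at 6.66 ± 0.07 (SD, n = 3) were not. With the 99th percentile as background 3 of the 9 remained above it, where 47.8% of all genes did.

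**Figure D4:**
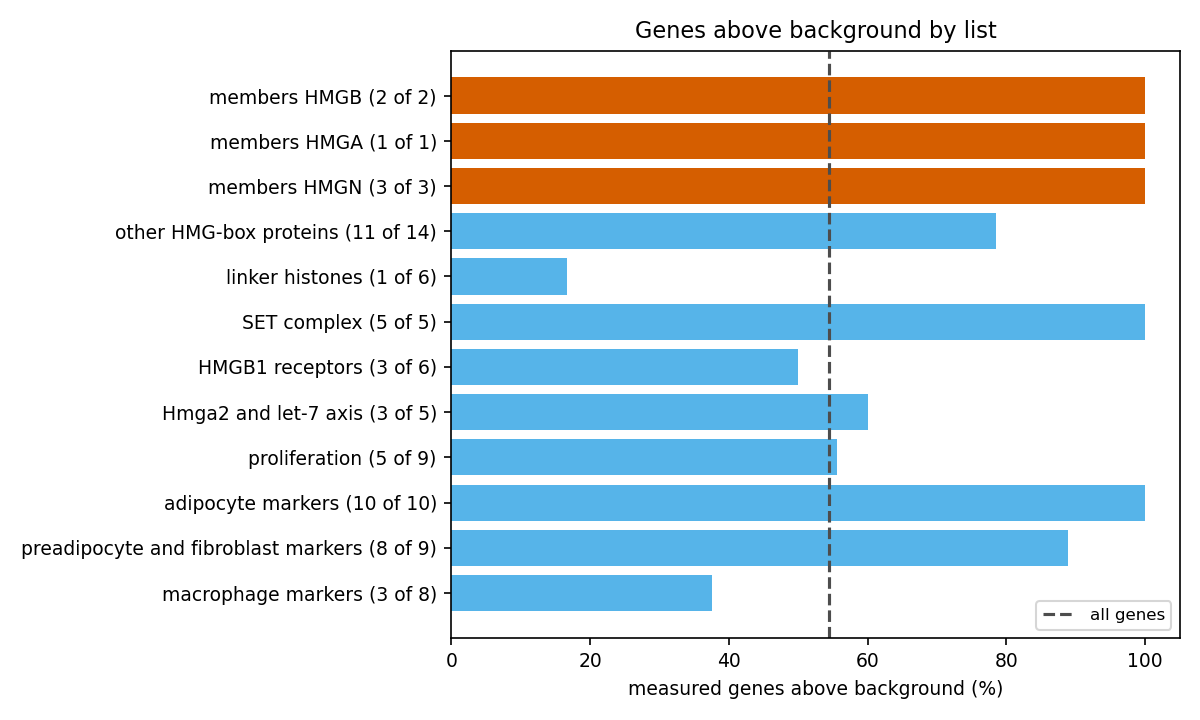
Share of measured genes above background in percent (x axis) for the chosen members of each HMG family, in orange, and the other lists, in blue (y axis, with the count above background of the count measured), and for all genes as a dashed line at 54.4%. The measured members chosen from the 3 HMG families and the list around the SET complex stand at 100%, and linker histones at 16.7% lie lowest. Hmgb4 of the HMGB family, not above background, is counted with the other HMG-box genes.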

How the data were processed

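The authors had summarised the arrays by RMA (affyPLM), and the deposited values are linear intensities per probe set, of which log2 was taken. The version, the other arrays normalized with these and any later scaling are not given in the sources used here, so scale and centring stay unknown. Names came from the annotation of the platform, in which 34958 probe sets had 1 gene, 932 several and 9211 none, and only the first kind was used. Listed genes were matched through Entrez identifiers and RefSeq names (GRCm38.p6). The level of a gene was its probe set with the highest mean.

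The members and gene lists were chosen with earlier results of these data known. Named genes were all members, the first 3 of each list in the order written, those not above background, and the 3 nearest to Hmgb2. Of these Ssrp1, H1f0, H1f1, Ccnb1 and Plin1 had no probe set of their own. Some other genes were named to complete a count or to give a limit. The range and likeness limits and the promoter search were chosen after values were seen. The study's limma comparison needs control arrays, so no test was run. The accuracy of calls close to background was not tested. Alternatives were other backgrounds, the median of probe sets, leaving out _x_at and _s_at probe sets, centring and leaving out each array. Python 3.11.15, pandas 2.3.3, numpy 2.4.6 and matplotlib 3.10.9 were used.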

Additional observations from a re-analysis of the deposited data

How the results depend on the processing

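No paired analysis was possible because all arrays belong to the glucose oxidase group. The number of chosen HMG genes above background, 6, was 5 with the median of probe sets, where Hmga2 was lost. It was 6 under every other alternative run. The share of all genes, 54.4%, was 43.8% with the median of probe sets. Of the list counts, that of proliferation genes, 5, was 3 with the 99th percentile as background, and the others stayed within 1.5 times. With that background the share of all genes was 47.8%. When any 1 array was left out, the median SD of the 6 HMG genes, 0.073, ranged from 0.020 to 0.059 and the SD of Hmgb2, 0.115, from 0.021 to 0.150. The share of genes above background with an SD of at least that of Hmgb2, 5.21%, ranged from 1.55% to 73.3%, and was 13.4% with all genes as reference. It was thus decided by which arrays were used, with the highest value without replicate 2 and the lowest without replicate 3. With the median of probe sets the levels of Hmga2, Hmgn1 and Hmgn3 moved by more than 1 SD, to 7.59, 13.29 and 11.13, and that of Hmga2 to 8.20 without _x_at and _s_at probe sets. For these shifts the cause was not tested. Signal close to background limits the calls of Mcm5 at 7.67 and Ccna2 at 8.04, the proliferation genes lost with the 99th percentile. It also limits those of Ager at 8.15 and Tox2 at 7.98, which were lost with the 99th percentile too.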
